A study of Homo sapiens with 6 samples.

Results

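Glycolysis splits glucose into pyruvate in the cytosol. The pyruvate then leaves the cell as lactate or enters the mitochondrion, where the pyruvate dehydrogenase complex turns it into acetyl-CoA for the tricarboxylic acid cycle. The gene group described here follows that route and holds 35 of the 33392 genes in the deposited expression table, each matched by its gene name. It runs from the glucose transporters through the kinases, isomerases and dehydrogenases of glycolysis to lactate release, the mitochondrial pyruvate carrier, the pyruvate dehydrogenase complex and the kinases that inhibit that complex.

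RNA was sequenced from cells labelled HK-2, the name of an immortalised line derived from human proximal tubule epithelium. In 3 libraries DYRK2, a protein kinase, had been silenced with a small interfering RNA (siDYRK2). The other 3 libraries received a scramble small interfering RNA. Both groups received TGF-β1, a profibrotic cytokine, and both are labelled 48 h. The comparison therefore asks what silencing DYRK2 changes in TGF-β1-treated cells, and it does not measure the response to TGF-β1. Whether replicates were separate cultures is not stated in the labels, so the spread behind every p-value may be technical.

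DYRK2 itself (ENSG00000127334) was at 1.45, 1.54 and 1.49 FPKM in siDYRK2 libraries, against 5.84, 6.06 and 5.96 FPKM in scramble libraries, so that 25.1% of the scramble level was left. FPKM, the authors' unit, is a fragment abundance corrected for library size and transcript length. It allows levels of different genes to be compared but no longer holds the sequencing depth, which is unknown. The 6 libraries had summed FPKM of 252318 to 255378, of which 26.3% to 27.8% came from mitochondrially encoded genes. Of 8 proximal tubule markers, 6, among them CUBN, AQP1 and SLC34A1, stayed below a mean of 0.5 FPKM in both groups, and LRP2 was not analysed here. NKX2-1, a lung and thyroid transcription factor picked out after its values were seen, was at 23.4 and 26.5 FPKM in siDYRK2 and scramble libraries. These values go against the label, and whether the cells are HK-2 was not tested. Of 5 epithelial markers, 3 fell and none rose. These calls are 60.0% of the markers, against 38.3% of all tested genes called and 17.9% called lower. CDH1, the epithelial cadherin, was at 1.17 ± 0.131 FPKM with siDYRK2 and 2.97 ± 0.0751 FPKM with scramble (SD, n = 3 each, limma adjusted p = 8.4e-05). The keratin KRT19 was at 97.6 and 158 FPKM, KRT18 at 87.3 and 123 FPKM, KRT8 at 49.4 and 48.2 FPKM, and the adhesion molecule EPCAM at 8.70 and 10.0 FPKM in siDYRK2 and scramble libraries, the last 2 not called. The part of these marker differences in the results that follow was not tested. Of the fibroblast and mesangial markers analysed (6) and the endothelial markers (5), none was expressed enough to test, and of 4 immune markers analysed only CD68 was. The fibroblast marker COL1A2 and the immune markers PTPRC and CD3E were not analysed here.

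In the proximal tubule, filtered glucose enters the cell through sodium-coupled transporters and leaves it through facilitative ones, whereas most cultured cells take glucose up through facilitative transporters. Hexokinases trap glucose in the cell as glucose 6-phosphate. Phosphofructokinase is the main control point, driven by fructose 2,6-bisphosphate, which the bifunctional PFKFB enzymes make and break down. Proximal tubule cells in the body rely on mitochondrial oxidation and make glucose, whereas immortalised tubule cells in culture are known to use glycolysis heavily.

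Of the 35 genes, 34 averaged 0.5 FPKM or more over the 6 libraries and were tested with limma on log2(FPKM + 0.5), with p-values adjusted over all 15121 genes that passed this filter. With siDYRK2, 16 of them rose and 6 fell, and 12 did not pass the adjusted threshold of 0.05. The 22 calls are 64.7% of those tested, against 38.3% of all genes called in either direction, 20.4% called higher and 17.9% called lower. Calls were more frequent from a mean of 5 FPKM upwards, the only level compared over all genes. Among all genes averaging 5 FPKM or more, 50.3% were called, and among the 27 members above that level 21 were. Only PDK1 was called among the 7 tested members below it. The libraries of the 2 groups did not overlap for 24 members, 17 higher and 7 lower, where 51.7% of all tested genes had no overlap. The median log2 fold change, siDYRK2 minus scramble, was 0.13 over the members and 0.01 over all tested genes, and the members spanned −0.76 to 0.69. These are RNA levels of bulk cultures, in which fewer cells of a kind and less RNA per cell cannot be told apart.

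**Figure D1:**
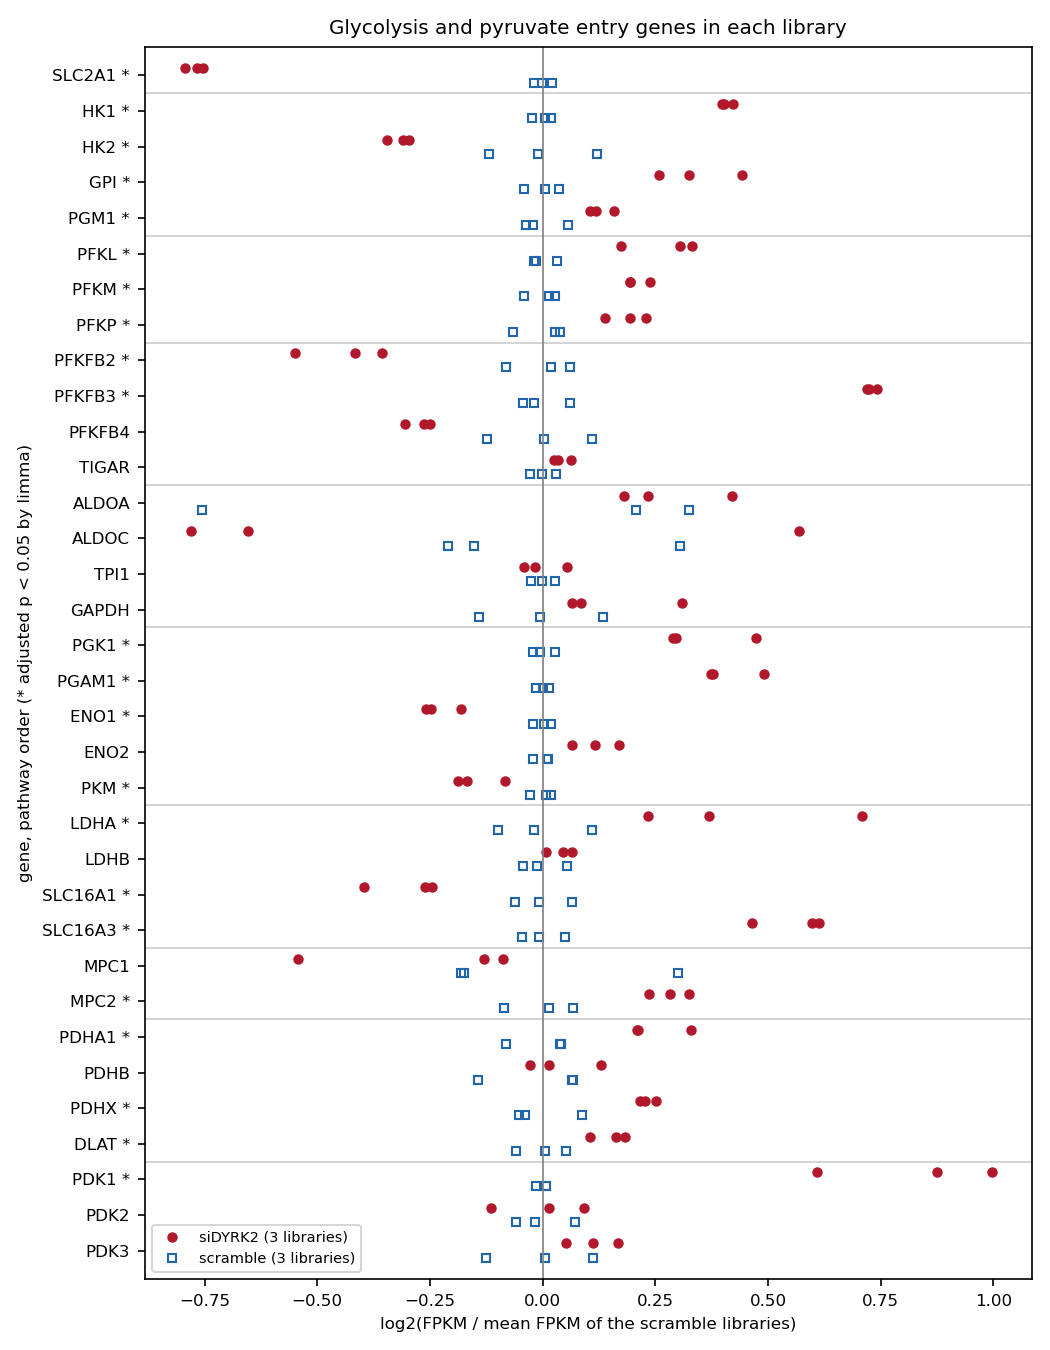
Level of each tested gene in each library, as log2 of its FPKM over the mean FPKM of the 3 scramble libraries, in pathway order from glucose uptake (top) to the pyruvate dehydrogenase kinases (bottom). Filled circles are siDYRK2 libraries, open squares scramble libraries, and asterisks mark the 22 genes called by limma. SLC2A1 lies far to the left and PFKFB3, SLC16A3 and PDK1 to the right of the scramble points, and 1 scramble library stands apart for ALDOA.

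The summed FPKM of all 35 genes was 2234, 2221 and 2446 in siDYRK2 libraries, against 2288, 2095 and 2169 in scramble libraries. The groups overlapped, and an exact two-sided permutation test gave p = 0.4, where 3 against 3 libraries cannot give less than 0.1. Most of this sum came from 7 genes averaging 100 FPKM or more (ALDOA, TPI1, GAPDH, PGAM1, ENO1, PKM and LDHB), which held 81.8% of it with siDYRK2 and 83.0% with scramble. Of these 7, PGAM1 rose, ENO1 and PKM fell and 4 were not called. The 4 members with the largest log2 fold changes, SLC2A1, PFKFB3, SLC16A3 and PDK1, were all outside these 7.

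The promoters of the gene that fell most and of the 2 genes that rose most on the log2(FPKM + 0.5) scale are given to set their sequences beside the expression change. Each is a RefSeq window of 250 bases before and 50 bases after a transcription start, read 5′ to 3′ on the gene's strand in GRCh38.p14. Capitals mark ACGTG, the core that hypoxia-inducible factors bind and that also lies inside CACGTG, a site read by MYC and by the glucose-responsive factor ChREBP. PFKFB3 is at chr10:6202682-6202981 on the plus strand, SLC16A3 at chr17:82228792-82229091 on the plus strand, and SLC2A1 at chr1:42958819-42959118 on the minus strand.
PFKFB3: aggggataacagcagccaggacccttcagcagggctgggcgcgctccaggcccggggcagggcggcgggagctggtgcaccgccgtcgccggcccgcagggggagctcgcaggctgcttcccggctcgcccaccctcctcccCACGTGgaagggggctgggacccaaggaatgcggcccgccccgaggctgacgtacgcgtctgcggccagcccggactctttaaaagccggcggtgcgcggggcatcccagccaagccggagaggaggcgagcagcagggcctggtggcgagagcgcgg
SLC16A3: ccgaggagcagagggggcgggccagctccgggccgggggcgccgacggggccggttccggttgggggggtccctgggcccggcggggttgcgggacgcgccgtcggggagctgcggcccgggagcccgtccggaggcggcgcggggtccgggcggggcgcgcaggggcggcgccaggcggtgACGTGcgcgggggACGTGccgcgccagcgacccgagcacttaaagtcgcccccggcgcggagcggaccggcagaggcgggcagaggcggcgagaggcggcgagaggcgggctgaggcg
SLC2A1: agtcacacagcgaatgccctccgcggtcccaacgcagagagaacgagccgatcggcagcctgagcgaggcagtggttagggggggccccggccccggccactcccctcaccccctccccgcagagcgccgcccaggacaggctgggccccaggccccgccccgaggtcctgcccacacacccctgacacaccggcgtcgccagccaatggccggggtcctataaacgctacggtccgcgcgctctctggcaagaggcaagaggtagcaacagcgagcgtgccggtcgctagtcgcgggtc

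The PFKFB3 window held 1 CACGTG, which counts as 2 matches because both of its strands read ACGTG. The SLC16A3 window held 2 separate copies of ACGTG, and the only SLC2A1 window in the table held none on either strand. SLC16A3 had 5 windows and PFKFB3 had 2, and those with the most matches are shown. Of all 35116 windows, 21.4% held ACGTG on either strand, and 25 of the 65 windows of the group's genes did (38.5%). A window was found for 32 of the 35 genes. At least 1 window with the motif was present for 11 of 16 genes that rose, 1 of 4 that fell and 9 of 12 that were not called, and the share was no lower among uncalled genes than among those that rose. The share over all genes was taken by window only. By window, 12 of 43 held the motif for genes that rose (27.9%) and 2 of 5 for genes that fell. For uncalled genes 11 of 17 windows did (64.7%). Genes with several start sites have several windows and more chances of a match, and a match is a match of letters only.

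The largest fall of the group was in the RNA of SLC2A1, the only glucose transporter of the group that was tested. SLC2A1 (ENSG00000117394, chromosome 1, 42925375 to 42959176 on the minus strand, GRCh38) encodes the glucose transporter GLUT1. It was at 22.09, 21.68 and 22.28 FPKM in siDYRK2 libraries, against 38.12, 37.06 and 37.55 FPKM in scramble libraries. Every siDYRK2 library was below every scramble library, and within each group the libraries differed little. The mean was 58.6% of the scramble mean, which is −0.76 on the log2 scale (SE 0.0293, limma adjusted p = 6.0e-06). SLC2A3, which encodes the high-affinity transporter GLUT3, was at 0.04, 0.04 and 0.00 FPKM with siDYRK2 and at 0.07, 0.05 and 0.07 FPKM with scramble, below the level tested. SLC2A1 thus made up 99.9% and 99.8% of the summed FPKM of these transporters in siDYRK2 and scramble libraries.

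No other tested gene of the SLC2A transporter family rose. SLC2A6, a lysosomal family member, also fell, to 7.03 ± 0.380 FPKM with siDYRK2, against 10.0 ± 0.564 FPKM with scramble (limma adjusted p = 7.3e-04). SLC2A8, SLC2A10 and SLC2A13 were not called, with log2 fold changes of 0.05, 0.04 and −0.05. The fructose transporter SLC2A5, the insulin-regulated SLC2A4 and the sodium-coupled SLC5A1 and SLC5A2 of the proximal tubule were all below a mean of 0.5 FPKM.

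The hexokinases, which phosphorylate glucose, moved in opposite directions. HK1 (ENSG00000156515, chromosome 10), the broadly expressed form, was at 28.29, 28.68 and 28.22 FPKM in siDYRK2 libraries, against 21.06, 21.49 and 21.69 FPKM in scramble libraries. HK2 (ENSG00000159399, chromosome 2), the inducible form, was at 7.19, 6.95 and 7.13 FPKM in siDYRK2 libraries, against 8.13, 8.77 and 9.60 FPKM in scramble libraries. Neither gene overlapped between groups. HK1 rose 1.33-fold (log2 fold change 0.40, SE 0.0293, limma adjusted p = 8.5e-05), and HK2 fell to 80.3% (log2 fold change −0.30, SE 0.0610, limma adjusted p = 0.0079). AC019069.1, a noncoding RNA gene on the strand opposite HK2, was also lower with siDYRK2, at 1.43 FPKM, than with scramble, at 1.83 FPKM. Its part in the HK2 value was not tested. HK1 held 80.0% ± 0.413 of the summed hexokinase FPKM with siDYRK2 and 70.8% ± 1.42 with scramble (SD, n = 3 each). The sum of both was higher with siDYRK2, at 35.5 ± 0.140 FPKM, than with scramble, at 30.2 ± 1.05 FPKM, without overlap (exact permutation p = 0.1). Of the other glucose kinases, HK3 was near 0, and HKDC1, at 1.27 and 1.61 FPKM in siDYRK2 and scramble libraries, and the ADP-dependent ADPGK, at 14.4 and 13.6 FPKM, were not called.

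The following isomerase rose. GPI, which converts glucose 6-phosphate to fructose 6-phosphate, was at 37.76, 36.07 and 40.94 FPKM in siDYRK2 libraries, against 30.89, 30.26 and 29.28 FPKM in scramble libraries. The groups were clearly apart, with siDYRK2 replicate 3 highest. GPI rose 1.27-fold (log2 fold change 0.34, SE 0.0498, limma adjusted p = 0.0019). PGM1, which links glycogen breakdown to glycolysis, was at 12.5 ± 0.242 and 11.4 ± 0.394 FPKM in siDYRK2 and scramble libraries, a 1.09-fold rise at an adjusted p of 0.043 by limma. That call was the least stable of the group. It was lost in 8 of 15 alternative analyses, including those without siDYRK2 replicate 1, 2 or 3 (limma adjusted p = 0.079, 0.13 and 0.076) and without scramble replicate 2 or 3 (0.14 and 0.10), over a range of 0.034 to 0.14.

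The subunits of phosphofructokinase, which commits hexose phosphate to glycolysis, rose together by small amounts. PFKL was at 11.88, 10.66 and 11.67 FPKM in siDYRK2 libraries, against 9.66, 9.32 and 9.35 FPKM in scramble libraries. PFKM was at 14.47, 14.47 and 14.91 FPKM with siDYRK2, against 12.88, 12.77 and 12.28 FPKM with scramble. PFKP, the most abundant, was at 48.84, 47.02 and 50.09 FPKM with siDYRK2, against 43.51, 43.83 and 40.77 FPKM with scramble. In none of the 3 did the groups overlap. The rises were 1.21-fold for PFKL, 1.16-fold for PFKM and 1.14-fold for PFKP, with adjusted p-values by limma of 0.0055, 0.0041 and 0.0095. The make-up of the enzyme barely moved, since PFKP held 65.2% and 65.9%, PFKM 19.6% and 19.5%, and PFKL 15.3% and 14.6% of the summed FPKM in siDYRK2 and scramble libraries. SENP1 lies opposite PFKM and was at 7.54 and 6.89 FPKM in siDYRK2 and scramble libraries. Strand use in counting is not given in the sources used here, and the part of that gene in the PFKM value was not tested.

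The enzymes that set fructose 2,6-bisphosphate changed places. PFKFB3 (ENSG00000170525, chromosome 10, 6144934 to 6254644 on the plus strand), whose kinase activity far outweighs its phosphatase activity, was at 12.05, 11.87 and 11.90 FPKM in siDYRK2 libraries, against 7.11, 7.00 and 7.52 FPKM in scramble libraries. PFKFB2 (ENSG00000123836, chromosome 1), the heart and kidney form, was at 8.82, 8.46 and 7.71 FPKM in siDYRK2 libraries, against 10.67, 11.43 and 11.77 FPKM in scramble libraries. Both genes separated the groups without overlap, in opposite directions. PFKFB3 rose 1.66-fold (log2 fold change 0.69, SE 0.0404, limma adjusted p = 3.3e-05), the largest rise of the 34 tested genes on the log2(FPKM + 0.5) scale. PFKFB2 fell to 73.8% (log2 fold change −0.42, SE 0.0601, limma adjusted p = 0.0017). PFKFB3 held 56.0% ± 1.44 of the summed PFKFB FPKM with siDYRK2 and 36.4% ± 1.01 with scramble (SD, n = 3 each). PFKFB2 held 39.0% ± 1.49 with siDYRK2 and 57.0% ± 0.947 with scramble (exact permutation p = 0.1 for each gene), so the leading isoform differed between the groups. The sum of PFKFB2, PFKFB3 and PFKFB4 was 21.3 ± 0.653 FPKM with siDYRK2 and 19.8 ± 0.701 FPKM with scramble. YOD1, which lies opposite PFKFB2, was higher with siDYRK2 at 10.0 FPKM than with scramble at 8.0 FPKM, the reverse of PFKFB2.

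The other genes of this control point changed less. PFKFB4 was at 1.09, 1.08 and 1.05 FPKM in siDYRK2 libraries, against 1.30, 1.40 and 1.19 FPKM in scramble libraries. The groups did not overlap, but the log2 fold change of −0.19 (SE 0.0807) did not pass (limma adjusted p = 0.10). TIGAR, a fructose 2,6-bisphosphatase, was at 3.40 ± 0.0473 FPKM with siDYRK2 and 3.30 ± 0.0651 FPKM with scramble, with overlapping groups (limma adjusted p = 0.61).

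**Figure D2:**
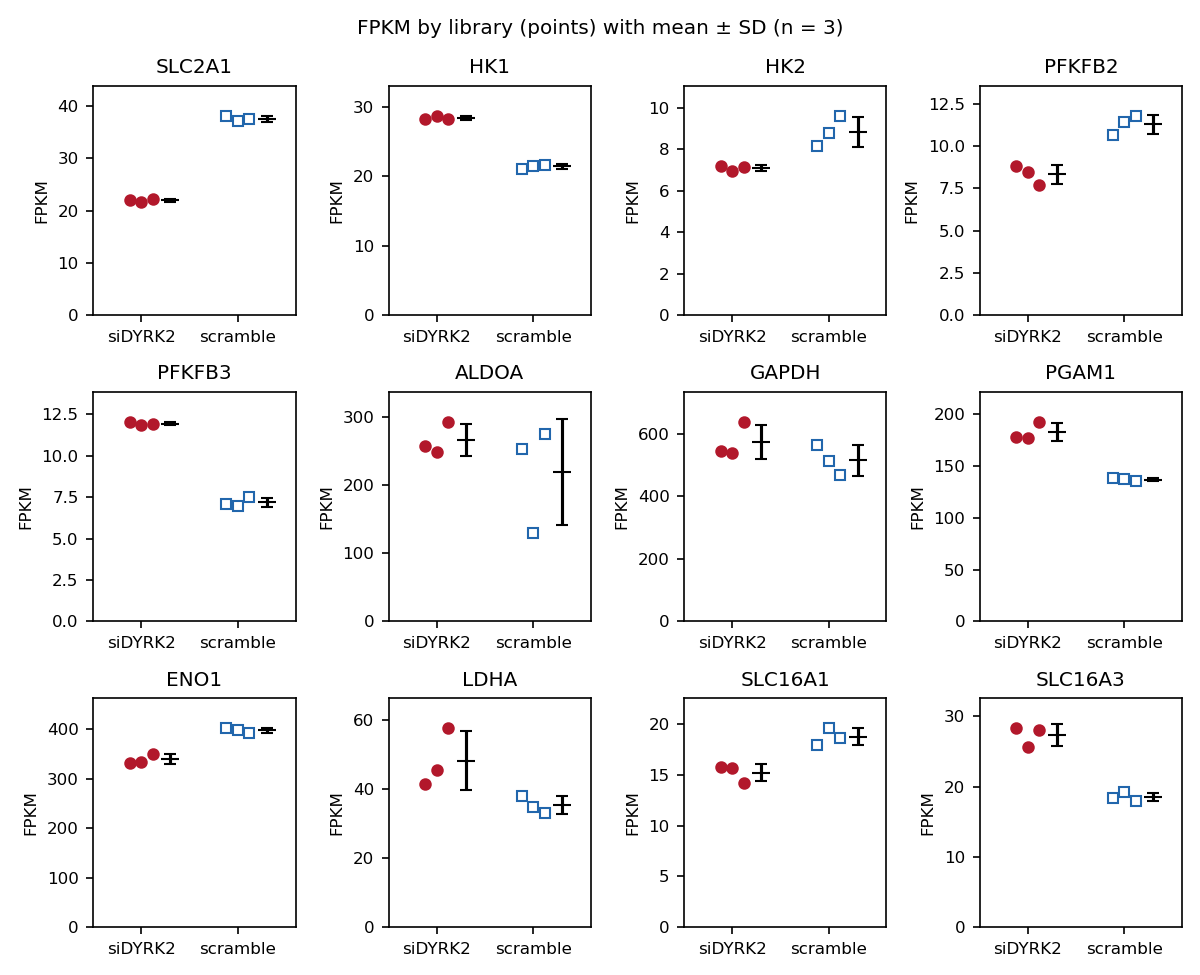
FPKM of 12 genes of the route in each library, siDYRK2 as filled circles and scramble as open squares, with the mean and SD over 3 libraries in black and axes from 0. SLC2A1, HK2, PFKFB2, ENO1 and SLC16A1 are lower and HK1, PFKFB3, PGAM1, LDHA and SLC16A3 higher with siDYRK2. ALDOA in scramble replicate 2 and LDHA in siDYRK2 replicate 3 lie away from the other libraries of their groups.

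The triose steps gave no call. ALDOA, the aldolase that splits fructose 1,6-bisphosphate, was at 257.26, 248.05 and 292.49 FPKM in siDYRK2 libraries, against 252.49, 129.62 and 274.16 FPKM in scramble libraries. Scramble replicate 2 was far below the other 5 libraries, which overlapped. The log2 fold change was 0.35 with an SE of 0.260 (limma adjusted p = 0.33), and without scramble replicate 2 it was 0.01 (limma adjusted p = 0.93, with a range of 0.15 to 0.93 over the alternatives). ALDOC, the brain-type aldolase, was at 0.33, 0.36 and 0.84 FPKM with siDYRK2, against 0.70, 0.51 and 0.49 FPKM with scramble, and the libraries overlapped.

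TPI1, which interconverts the triose phosphates, was nearly level, at 134 ± 4.63 FPKM with siDYRK2 and 134 ± 2.43 FPKM with scramble (log2 fold change −0.00, SE 0.0338, limma adjusted p = 0.98). GAPDH, the NADH-producing step and the most abundant gene of the group, was at 546.38, 539.44 and 638.33 FPKM with siDYRK2, against 565.54, 513.22 and 466.94 FPKM with scramble. The groups overlapped through scramble replicate 1, and the log2 fold change of 0.16 (SE 0.0866) did not pass (limma adjusted p = 0.19). It was 0.08 without siDYRK2 replicate 3 and 0.09 without scramble replicate 3, and not called in either case (limma adjusted p = 0.47 and 0.45, with a range of 0.082 to 0.47 over the alternatives).

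In the lower, ATP-forming part of glycolysis, PGK1 and PGAM1 rose while ENO1 and PKM fell. PGK1, which makes the first ATP of the pathway, was at 45.91, 45.68 and 51.90 FPKM in siDYRK2 libraries, against 37.21, 38.11 and 36.80 FPKM in scramble libraries. PGAM1, the mutase that follows, was at 177.75, 177.23 and 192.38 FPKM with siDYRK2, against 138.24, 136.89 and 135.36 FPKM with scramble. Both were apart between groups, with siDYRK2 replicate 3 highest for each. PGK1 rose 1.28-fold (log2 fold change 0.35, SE 0.0522, limma adjusted p = 0.0020). PGAM1 rose 1.33-fold (log2 fold change 0.41, SE 0.0379, limma adjusted p = 2.4e-04). BPGM, which diverts the 1,3-bisphosphoglycerate that PGK1 uses to 2,3-bisphosphoglycerate, rose as well, to 5.76 ± 0.387 FPKM with siDYRK2, against 4.10 ± 0.0608 FPKM with scramble (limma adjusted p = 9.8e-04).

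ENO1, the main enolase, was at 332.02, 334.32 and 350.19 FPKM in siDYRK2 libraries, against 402.13, 398.23 and 391.13 FPKM in scramble libraries. Its groups were apart, and siDYRK2 held 85.3% of the scramble level (log2 fold change −0.23, SE 0.0317, limma adjusted p = 0.0014). ENO2, the neuronal enolase, was at 9.66, 9.32 and 10.02 FPKM with siDYRK2, against 8.98, 8.97 and 8.77 FPKM with scramble, apart but not called (limma adjusted p = 0.067). ENO3, the muscle enolase, fell to 2.71 ± 0.0874 FPKM with siDYRK2, against 3.69 ± 0.0520 FPKM with scramble (limma adjusted p = 0.0012).

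PKM, the pyruvate kinase gene of these cells, was at 252.47, 256.17 and 271.58 FPKM in siDYRK2 libraries, against 291.62, 289.36 and 282.15 FPKM in scramble libraries. The groups were apart by a small margin, with siDYRK2 replicate 3 nearest to the scramble libraries. It fell to 90.4% (log2 fold change −0.15, SE 0.0357, limma adjusted p = 0.016). The call was lost in 5 of 15 alternatives, among them those without siDYRK2 replicate 1 (limma adjusted p = 0.062), siDYRK2 replicate 2 (0.059) or scramble replicate 2 (0.057), over a range of 0.0067 to 0.065. The gene-level values do not separate the M1 and M2 forms of PKM. PKLR, the liver and proximal tubule pyruvate kinase, was at 0.06 and 0.07 FPKM in siDYRK2 and scramble libraries.

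Genes of lactate formation and export shifted towards LDHA and SLC16A3. LDHA (ENSG00000134333, chromosome 11), the subunit that favours reduction of pyruvate to lactate, was at 41.44, 45.49 and 57.61 FPKM in siDYRK2 libraries, against 38.02, 34.79 and 32.92 FPKM in scramble libraries. The groups did not overlap, but siDYRK2 replicate 3 was well above the other libraries. LDHA rose 1.37-fold (log2 fold change 0.43, SE 0.116, limma adjusted p = 0.022). The call was lost in 4 of 15 alternatives, among them those without scramble replicate 2 (limma adjusted p = 0.063) or scramble replicate 3 (0.066), over a range of 0.013 to 0.069. LDHB, the heart-type subunit, was at 125 ± 2.50 FPKM with siDYRK2 and 122 ± 4.23 FPKM with scramble and was not called (limma adjusted p = 0.40). LDHA held 27.7% ± 3.28 of the summed FPKM of both with siDYRK2 and 22.4% ± 0.666 with scramble, without overlap (SD, n = 3 each, exact permutation p = 0.1). The 4 listed pseudogene rows of LDHA summed to 1.49% and 0.955% of its level in siDYRK2 and scramble libraries, and reads shared with them could not be separated.

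The lactate transporters moved in opposite directions. SLC16A3 (ENSG00000141526, chromosome 17, 82228397 to 82261129 on the plus strand) encodes MCT4, the low-affinity exporter of lactate-producing cells. It was at 28.36, 25.60 and 28.07 FPKM in siDYRK2 libraries, against 18.45, 19.20 and 17.97 FPKM in scramble libraries. SLC16A1, which encodes the higher-affinity MCT1, was at 15.78, 15.61 and 14.23 FPKM in siDYRK2 libraries, against 17.95, 19.59 and 18.61 FPKM in scramble libraries. Neither overlapped between groups. SLC16A3 rose 1.47-fold (log2 fold change 0.55, SE 0.0484, limma adjusted p = 2.0e-04), and SLC16A1 fell to 81.2% (log2 fold change −0.29, SE 0.0521, limma adjusted p = 0.0043). SLC16A3 held 64.2% ± 2.12 of their summed FPKM with siDYRK2 and 49.8% ± 0.816 with scramble, where the pair was nearly equal (SD, n = 3 each, exact permutation p = 0.1). Their shared chaperone BSG was level, at 222 ± 5.74 FPKM with siDYRK2 and 222 ± 0.459 FPKM with scramble. CSNK1D lies opposite SLC16A3 and was at 24.1 and 21.4 FPKM in siDYRK2 and scramble libraries, a smaller difference than that of SLC16A3. Its part in the SLC16A3 value was not tested.

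**Figure D3:**
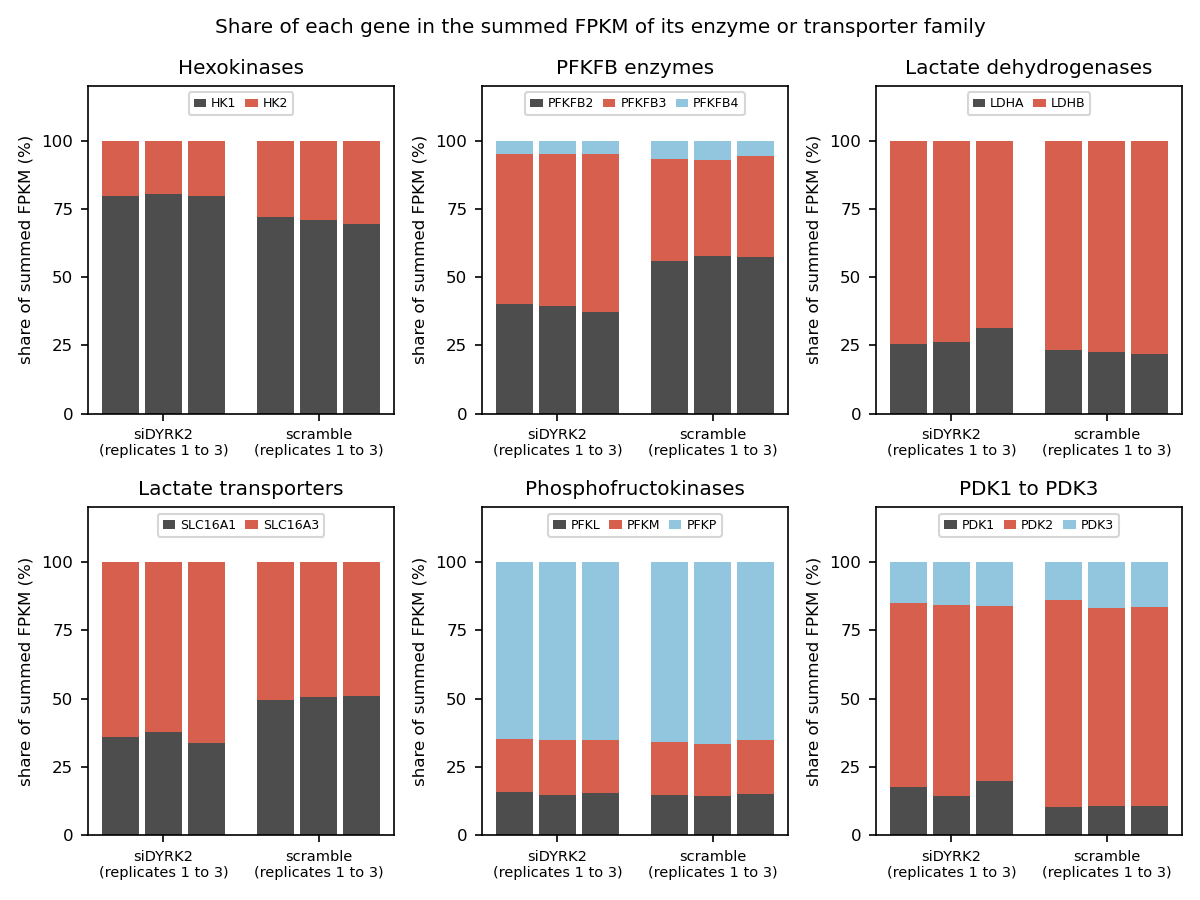
Share of each gene in the summed FPKM of its family, in percent, with a stacked bar for each siDYRK2 library (left) and each scramble library (right). The PFKFB3, HK1 and SLC16A3 shares are larger in every siDYRK2 library than in any scramble library. The phosphofructokinase shares are nearly the same in all 6 libraries.

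In all, 21 shares in 9 families were compared, and a family of 2 counts the same difference for both genes. Exact permutation tests gave 0.1, the smallest p possible here, for 14 of them, so no share can pass 0.05 by that test, with or without adjustment. The largest differences were those of PFKFB3, PFKFB2 and the lactate transporters described above, followed by HK1 against HK2. The phosphofructokinase, glucose transporter, aldolase and enolase shares differed by less than 1 percentage point.

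Entry of pyruvate into the mitochondrion passes through a carrier of MPC1 and MPC2. MPC1 was at 2.40, 2.33 and 1.75 FPKM in siDYRK2 libraries, against 2.26, 2.25 and 3.14 FPKM in scramble libraries, and the groups overlapped, with siDYRK2 replicate 3 lowest and scramble replicate 3 highest (limma adjusted p = 0.32). MPC2 was at 17.13, 16.60 and 17.64 FPKM with siDYRK2, against 13.27, 14.23 and 14.76 FPKM with scramble. Its groups were apart, and MPC2 rose 1.22-fold (log2 fold change 0.27, SE 0.0476, limma adjusted p = 0.0038). DCAF6 lies opposite MPC2 and differed by a similar ratio, at 17.0 and 14.4 FPKM in siDYRK2 and scramble libraries. Its part in the MPC2 value was not tested.

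Within the pyruvate dehydrogenase complex, 3 of the 4 members tested rose slightly. PDHA1, the E1 alpha subunit whose phosphorylation switches the complex off, was at 11.35, 10.45 and 10.46 FPKM in siDYRK2 libraries, against 8.54, 9.28 and 9.29 FPKM in scramble libraries. PDHX, the E3-binding protein, was at 7.27, 7.15 and 7.09 FPKM with siDYRK2, against 5.89, 6.49 and 5.94 FPKM with scramble. Both separated the groups. PDHA1 rose 1.19-fold (limma adjusted p = 0.0098) and PDHX 1.17-fold (limma adjusted p = 0.011). DLAT, the E2 acetyltransferase, rose 1.11-fold, to 12.4 ± 0.347 FPKM with siDYRK2, against 11.2 ± 0.436 FPKM with scramble (limma adjusted p = 0.033). The DLAT call was lost in 6 of 15 alternatives, including those without siDYRK2 replicate 1 or 2 (limma adjusted p = 0.092 and 0.10) and without scramble replicate 2 or 3 (both 0.086), over a range of 0.026 to 0.10. PDHB, the E1 beta subunit, was at 6.71 ± 0.384 FPKM with siDYRK2 and 6.52 ± 0.531 FPKM with scramble and was not called (limma adjusted p = 0.69).

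DLD, the E3 dehydrogenase shared with other complexes and not a member of the group, went the other way. It was at 14.79, 15.56 and 13.69 FPKM in siDYRK2 libraries, against 18.72, 18.98 and 17.54 FPKM in scramble libraries, which is −0.32 on the log2 scale (SE 0.0548, limma adjusted p = 0.0036). The subunits of the complex thus did not all move the same way.

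Among the regulators of the complex, called kinases rose and the phosphatase subunits fell. PDK1 (ENSG00000152256, chromosome 2), an inhibitory kinase, was at 1.13, 0.94 and 1.23 FPKM in siDYRK2 libraries, against 0.62, 0.62 and 0.61 FPKM in scramble libraries. The groups were apart and PDK1 rose 1.78-fold, with a log2 fold change of 0.51 on the log2(FPKM + 0.5) scale (SE 0.101, limma adjusted p = 0.0063), which understates the ratio at this low level. PDK2, the most abundant of the 3 member kinases, was level at 4.29 ± 0.307 FPKM with siDYRK2 and 4.29 ± 0.20 FPKM with scramble. PDK3 was at 0.99 ± 0.04 FPKM with siDYRK2 and 0.917 ± 0.0751 FPKM with scramble, and neither was called (limma adjusted p = 0.98 and 0.54). PDK1 held 17.3% ± 2.78 of the summed FPKM of these 3 kinases with siDYRK2 and 10.6% ± 0.206 with scramble.

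PDK4, the remaining kinase of this family and not a member of the group, was at 3.86, 4.33 and 4.45 FPKM in siDYRK2 libraries, against 1.24, 1.17 and 0.89 FPKM in scramble libraries (log2 fold change 1.56, SE 0.101, limma adjusted p = 5.2e-05). The phosphatases that reactivate the complex fell. PDP1, the calcium-sensitive catalytic subunit, was at 13.28, 13.98 and 11.95 FPKM with siDYRK2, against 19.67, 21.15 and 21.31 FPKM with scramble. PDP2 was at 3.69, 3.85 and 3.47 FPKM with siDYRK2, against 7.30, 7.81 and 7.61 FPKM with scramble. All 3 genes separated the groups, with log2 fold changes of −0.65 for PDP1 (SE 0.0620, limma adjusted p = 2.8e-04) and −0.95 for PDP2 (SE 0.0527, limma adjusted p = 2.5e-05). PDPR, the regulatory subunit, fell to 10.3 ± 0.307 FPKM with siDYRK2, against 11.6 ± 0.139 FPKM with scramble (limma adjusted p = 0.013), and without scramble replicate 2 it was not called (limma adjusted p = 0.053, over a range of 0.012 to 0.053). The summed FPKM of PDK1 to PDK4 over that of PDP1 and PDP2 was 0.605, 0.610 and 0.689 in siDYRK2 libraries, against 0.267, 0.242 and 0.226 in scramble libraries. This ratio was put together after its genes had been seen and is a description (exact permutation p = 0.1).

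**Figure D4:**
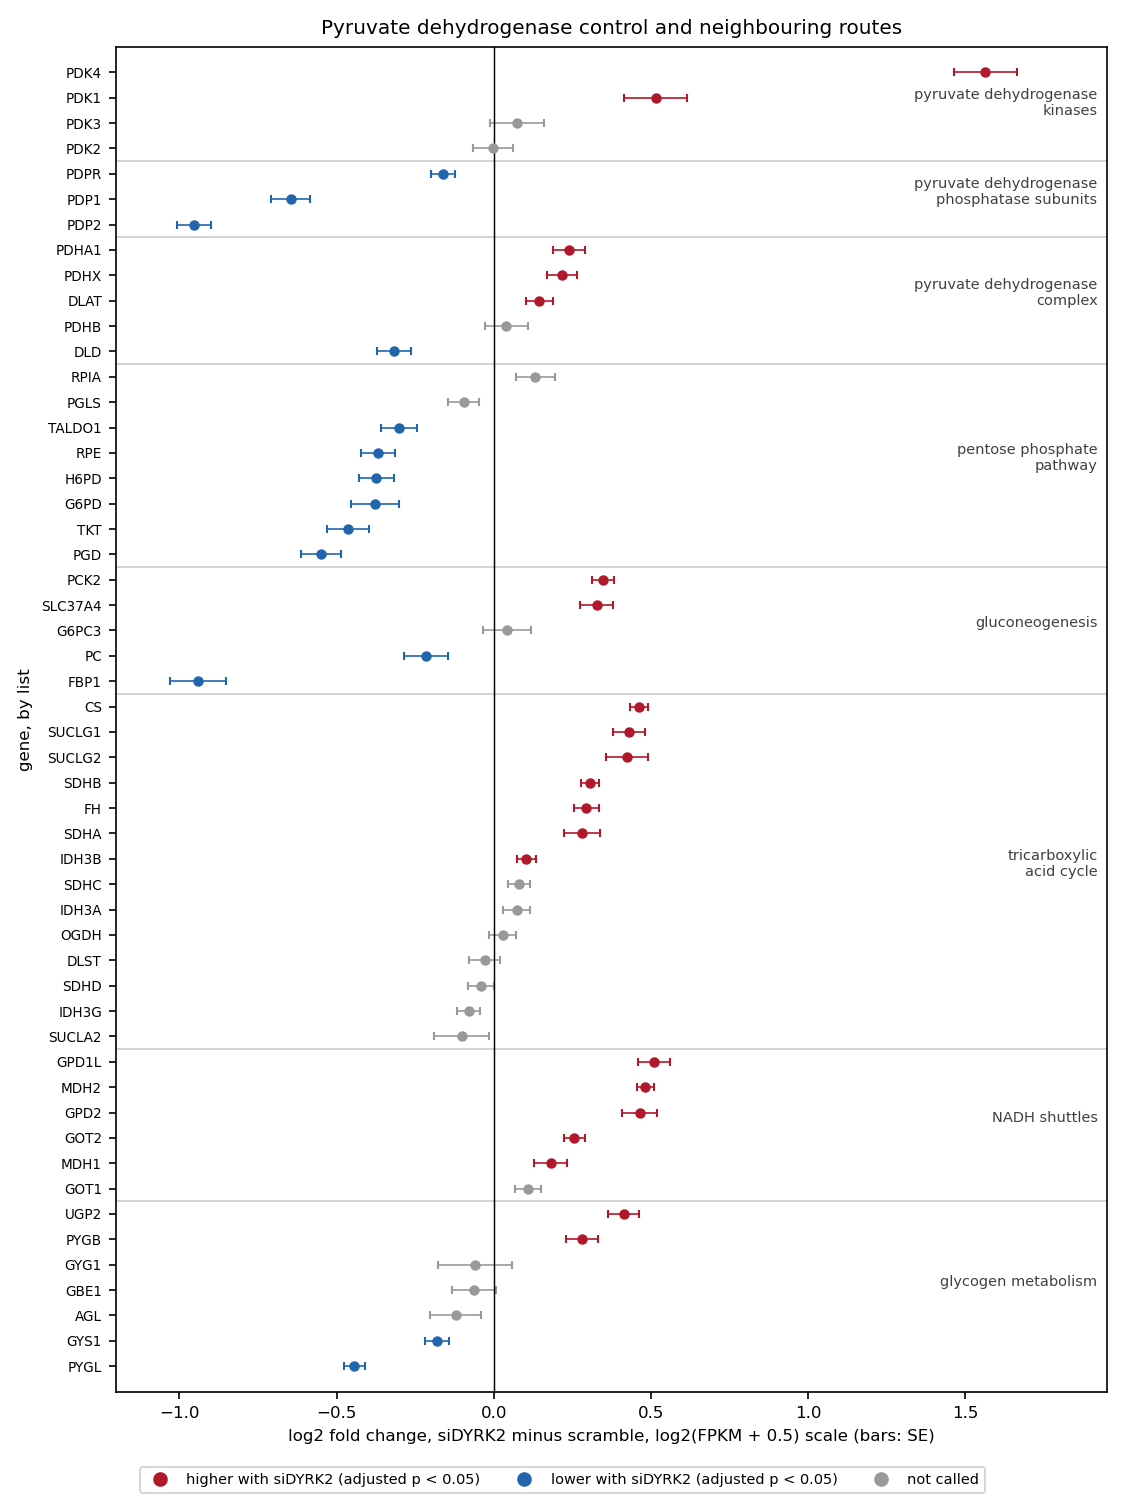
Log2 fold change, siDYRK2 minus scramble, with its SE on the log2(FPKM + 0.5) scale, for genes around pyruvate dehydrogenase and of 5 routes next to glycolysis. Red marks genes called higher with siDYRK2, blue those called lower, grey those not called. PDK4 lies farthest to the right and PDP2 farthest to the left among the pyruvate dehydrogenase regulators, all called pentose phosphate genes lie to the left, and all called tricarboxylic acid cycle and NADH shuttle genes to the right.

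Routes that share intermediates with glycolysis are given for comparison. The pentose phosphate pathway makes NADPH and ribose from glucose 6-phosphate. Of its 8 genes, 6 fell, none rose and 2 were not called (median log2 fold change −0.37, against 0.01 over all tested genes). Of all tested genes, 38.3% were called in either direction and 17.9% were called lower. Among all genes averaging 5 FPKM or more, 50.3% were called. PGD, the second NADPH-producing step of the pathway, was at 31.4 ± 0.980 FPKM with siDYRK2 and 46.3 ± 4.23 FPKM with scramble (log2 fold change −0.55, limma adjusted p = 6.9e-04). TKT, a transketolase, was at 40.8 ± 2.06 FPKM with siDYRK2 and 56.5 ± 4.78 FPKM with scramble (limma adjusted p = 0.0015). RPE and H6PD fell as well, and PGLS and RPIA, with log2 fold changes of −0.10 and 0.13, were not called. Scramble replicate 3 was the lowest scramble library for both PGD and TKT, at 41.83 and 51.48 FPKM, and still above every siDYRK2 library.

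Of 15 tricarboxylic acid cycle genes, 8 rose, none fell and 7 were not called (median log2 fold change 0.10). The called share of 53.3% is close to the 50.3% among all genes averaging 5 FPKM or more. CS, the citrate synthase, was at 52.0 ± 0.801 FPKM with siDYRK2 and 37.6 ± 0.643 FPKM with scramble (log2 fold change 0.46, limma adjusted p = 4.5e-05). SDHB, an iron-sulphur subunit of succinate dehydrogenase, and SUCLG1, a succinyl-CoA ligase subunit, had log2 fold changes of 0.31 and 0.43. The rise of IDH3B was the least stable, lost in 9 of 15 alternatives, with limma adjusted p-values of 0.024 to 0.089. Of 6 tested NADH shuttle genes, which return cytosolic NADH to the mitochondrion, 5 rose and 1 was not called. Their called share of 83.3% compares with the same 50.3%. MDH2, the mitochondrial malate dehydrogenase, was at 77.7 ± 1.34 FPKM with siDYRK2 and 55.5 ± 0.902 FPKM with scramble (log2 fold change 0.48, limma adjusted p = 3.4e-05), and GPD1L, GPD2 and GOT2 had log2 fold changes of 0.51, 0.46 and 0.26. The remaining rise, of MDH1, was lost in 7 of 15 alternatives (limma adjusted p = 0.014 to 0.092).

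Gluconeogenesis, the reverse route for which the proximal tubule is known, had 5 tested genes, of which 2 rose, 2 fell and 1 was not called. The called share was 80.0%, against 38.3% of all tested genes and 50.3% of those averaging 5 FPKM or more. FBP1, which opposes phosphofructokinase, was at 3.88, 2.92 and 3.40 FPKM in siDYRK2 libraries, against 6.96, 7.16 and 6.72 FPKM in scramble libraries. It fell by 0.94 on the log2 scale (SE 0.0887, limma adjusted p = 2.7e-04), so FBP1 and the phosphofructokinase subunits moved in opposite directions. PCK2, the mitochondrial phosphoenolpyruvate carboxykinase, and SLC37A4, the glucose 6-phosphate transporter of the endoplasmic reticulum, rose with log2 fold changes of 0.35 and 0.33. PC, the pyruvate carboxylase, had a log2 fold change of −0.22, and its call was lost in 9 of 15 alternatives (limma adjusted p = 0.014 to 0.13). G6PC1 was near 0, and G6PC3, at 7.99 and 7.75 FPKM in siDYRK2 and scramble libraries, was not called.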

How the data were processed

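Total RNA of 6 HK-2 cell libraries was extracted with Trizol and DNase I and sequenced by a commercial provider, per the labels' protocols. The authors deposited 1 table of FPKM for 33392 genes, using HISAT2 and StringTie on GRCh38, per the submitters' processing notes, which give no versions. The sources used here do not state the annotation, the strand use or the handling of reads with several matches. FPKM is scaled within each library, so depth is unknown: 25.0% to 26.5% of the values of short genes lay within 0.1 of a whole read at the best step, against 20% by chance, and no count test was run.

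Libraries were grouped as labelled, 3 siDYRK2 and 3 scramble, and all columns matched a label. No pair of columns was identical. The 15121 genes averaging 0.5 FPKM or more entered limma 3.58.1 (R 4.3.3) as log2(FPKM + 0.5). The fit used a mean-variance trend without a block, and p-values were adjusted over these genes by Benjamini-Hochberg, with a threshold of 0.05. The test was checked on simulated data with 200 changed genes, far fewer than were called here. Changes smaller than 0.5 on the log2 scale were not simulated. Means ± SD are over 3 libraries, and folds are ratios of mean FPKM. Shares, sums and ratios were compared by exact two-sided permutation tests (Python 3.11.15, scipy 1.17.1). Coordinates are from GENCODE v29 on GRCh38. Promoter windows are from RefSeq on GRCh38.p14. The alternatives were other pseudocounts, filters and scalings, no trend, a replicate block, and each library left out.

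The member genes and the lists were chosen with earlier results of these data known. From each comparison list at most 4 called genes with the smallest adjusted p were named, plus counts, uncalled genes of small lists, direct partners of the member enzymes and calls that changed under an alternative. Some genes that this takes, though counted in their lists, are not reported here.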

Additional observations from a re-analysis of the deposited data

How the results depend on the processing

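Over 15 alternatives the number of members called was 18 to 22, against 22 as reported, and the number of all genes called was 4466 to 5839, against 5793. With each library left out in turn it was 18 to 22 members and 4466 to 5071 genes. The same 18 of the 22 called members were called in every alternative in which they were tested, and none of the 22 changed sign. PDK1 was not tested with a minimum mean of 1 FPKM. The other 4 (PGM1, PKM, LDHA and DLAT) are given with their values above. PFKFB4 was called only without the mean-variance trend (limma adjusted p = 0.037). A few uncalled genes near 0 changed sign. Rescaled without mitochondrially encoded genes, TPI1 had a log2 fold change of 0.00681 and PDK2 of 0.00544. With a library left out, ALDOC ranged from −0.16 to 0.0147, TPI1 from −0.0291 to 0.0182, PDHB from −0.0252 to 0.0726 and PDK2 from −0.0447 to 0.0478. The cause was not tested. No scaling moved the median of all genes by 0.1 on the log2 scale.

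Replicate numbers are shared by both groups. The deviations of same-numbered libraries correlated at −0.077, 0.024 and −0.088, and those of different-numbered libraries at −0.040 to 0.11. Same-numbered libraries were thus no more alike, but these values cannot exclude a shared culture or day. With a replicate block 19 members and 4816 genes were called, and the DYRK2 log2 fold change stayed at −1.69. With a library left out, the difference in isoform share changed sign for 4 of 21 genes (SLC2A1, SLC2A3, PFKM and PDK3), all with overlapping groups. Depth is unknown, so no counting error is given, and 3 libraries a group cannot reach 0.05 in an exact permutation test.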

Other observations

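Genes that respond to low oxygen but lie outside glycolysis did not move one way. Of 13 tested, 3 rose, 5 fell and 5 were not called. The called share was 61.5%, against 38.3% of all tested genes and 50.3% of those averaging 5 FPKM or more. P4HA1, a collagen prolyl hydroxylase subunit, was at 38.7 ± 1.07 FPKM with siDYRK2 and 25.7 ± 0.783 FPKM with scramble (log2 fold change 0.58, limma adjusted p = 4.5e-05). VEGFA, the endothelial growth factor, was at 28.7 ± 0.683 FPKM with siDYRK2 and 48.5 ± 2.60 FPKM with scramble (log2 fold change −0.75, limma adjusted p = 3.4e-05). BNIP3L, a mitophagy receptor, was at 26.2 ± 0.673 FPKM with siDYRK2 and 47.3 ± 1.80 FPKM with scramble (log2 fold change −0.84, limma adjusted p = 1.2e-05). Its relative BNIP3, named after its values were seen, rose to 24.2 ± 2.19 FPKM with siDYRK2, against 19.1 ± 0.843 FPKM with scramble (limma adjusted p = 0.0074). MXI1, a MYC antagonist, fell to 3.30 ± 0.278 FPKM with siDYRK2, against 6.96 ± 0.212 FPKM with scramble (limma adjusted p = 5.6e-05).

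Among 11 regulators of glucose use, 6 rose, 1 fell and 4 were not called. Those called were 63.6%, against 38.3% of all tested genes and 50.3% of those averaging 5 FPKM or more. HIF1A, the hypoxia factor, was at 64.4 ± 2.93 FPKM with siDYRK2 and 61.6 ± 3.11 FPKM with scramble and was not called (limma adjusted p = 0.32), and MYC was not called either. EPAS1, which encodes HIF-2α, rose to 16.4 ± 0.984 FPKM with siDYRK2, against 8.41 ± 0.811 FPKM with scramble (log2 fold change 0.92, limma adjusted p = 1.3e-04). TXNIP, a brake on glucose uptake, rose to 4.98 ± 0.189 FPKM with siDYRK2, against 2.17 ± 0.184 FPKM with scramble (log2 fold change 1.04, limma adjusted p = 4.8e-05). Its relative ARRDC4, at 2.05 ± 0.368 and 1.76 ± 0.530 FPKM in siDYRK2 and scramble libraries, was not called. MLXIPL, which encodes ChREBP, fell to 1.56 ± 0.0252 FPKM with siDYRK2, against 2.36 ± 0.118 FPKM with scramble (limma adjusted p = 0.0013). PRKAA1, an AMP-activated kinase subunit, had a log2 fold change of 0.37. The call of PRKAA2 was lost in 6 of 15 alternatives (limma adjusted p = 0.019 to 0.092).

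Of 7 glycogen genes, 2 rose, 2 fell and 3 were not called. The called share of 57.1% compares with 38.3% of all tested genes and 50.3% of those averaging 5 FPKM or more. PYGL, the liver-type glycogen phosphorylase, was at 87.9 ± 2.69 FPKM with siDYRK2 and 120 ± 2.16 FPKM with scramble (log2 fold change −0.44, limma adjusted p = 8.4e-05). PYGB, the brain-type form, was at 32.0 ± 1.25 FPKM with siDYRK2 and 26.3 ± 1.55 FPKM with scramble, so the phosphorylases also moved in opposite directions.

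Among the 34 tested members, siDYRK2 replicate 3 was the highest library of its group for 16 and siDYRK2 replicate 2 the lowest for 17. Scramble replicate 1 was the highest library of its group for 18 members and scramble replicate 3 the lowest for 19. Over all tested genes these 4 shares were 28.9%, 27.2%, 32.2% and 35.4%.

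A named pseudogene was listed for 10 members, 46 rows in all. The summed FPKM of the 4 TPI1 pseudogenes was 4.20% and 4.18% of the level of TPI1 in siDYRK2 and scramble libraries. A gene on the opposite strand was listed for 19 members and had a mean of at least 0.5 FPKM in either group for 11.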
